A study of Mus musculus with 2 samples.

Results

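The solute carriers present in macrophage nuclei were taken as all protein-coding genes with a symbol of the Slc series, the gene family of membrane transporters, chosen by a mean of at least 1 TPM over both libraries. TPM divides reads by transcript length and scales each library to the same sum. Of 371 annotated protein-coding Slc genes, 173 reached this level and 198 did not. The share was 46.6% for the Slc genes and 45.8% for all protein-coding genes, with 10037 of 21901 at the same level. The level chose the genes, so presence and rank are given as a description and nothing was tested on them.

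The RNA came from nuclei of bone marrow-derived macrophages, primary phagocytes grown from marrow, of the mouse strain C57BL/6J, and was sequenced after removal of ribosomal RNA. The sample description calls the fraction nucleoplasmic. All cells had received 100 ng/ml Lipid A, the TLR4-binding part of lipopolysaccharide, for 12 hours, were kept without it for 12 hours, and were exposed again at 100 ng/ml for 20 minutes. The single group held 2 libraries, labelled biological replicates 1 and 2 of the same donor label, with no untreated library and with sex and age not collected. The labels do not say whether separate animals were used, so the spread between the libraries may be partly technical.

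Depth in genes was 21954179 expected counts for replicate 1 against 17739520 for replicate 2. Replicate 1 started from 1 µg of RNA and replicate 2 from 500 ng, and mitochondrially encoded mRNAs took 3.45% and 6.32% of the counts. Input and mitochondrial share cannot be told apart from the replicate in any difference given below, and their part was not tested. All 8 macrophage markers reached 1 TPM, with sums of 2472 and 2921 TPM, led by the lysozyme gene Lyz2. Of 26 markers of neutrophils, lymphoid, dendritic, stromal or endothelial, and erythroid or mast cells, S100a9 and Pecam1 reached 1 TPM, and the largest summed level of any of these 5 lists in either library was 2.60 TPM.

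Solute carriers move ions, metals, nutrients and metabolites across the plasma membrane and the membranes of lysosomes, Golgi and mitochondria, usually driven by an ion gradient or by exchange. Macrophages are known for carriers of the phagosome and lysosome that withhold metals from engulfed microbes or return digested material to the cytosol, and for changing their use of glucose, amino acids and iron after TLR4 stimulation. The libraries measured the nuclear RNA of these genes, which includes unfinished and intron-holding transcripts, and neither the protein nor transport. In such bulk RNA, fewer cells using a gene and less RNA per cell cannot be told apart.

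The 173 genes took 1.24% of the expected counts in replicate 1 (272628) and 1.23% in replicate 2 (218575). Their median was 9.34 TPM, with 8.46 and 9.82 TPM in the libraries, beside 8.92 TPM for all protein-coding genes present. A mean of 10 TPM was reached by 82 of them (47.4%, against 46.1% of the protein-coding genes present), 50 TPM by 15 and 100 TPM by 6. The 10 highest held 35.4% of the summed TPM of all 173. In all, 164 genes stood at 1 TPM or more in both libraries and 9 in a single library. Counts were sufficient for most of them, since 151 had at least 100 expected counts in each library and the lowest count was 29. Just inside the limit lay Slc25a33 at 1.03 TPM, Slc41a1 at 1.04 TPM and Slc35g1 at 1.08 TPM. Just outside were Slc25a29 at 0.990 TPM, Slc4a3 at 0.940 TPM and Slc25a15 at 0.820 TPM. Of the 198 genes under the limit, 110 had no count in either library, which still allows up to 0.137 and 0.169 CPM (counts scaled by the library total, from 3 counts per library), and 150 stayed under 0.1 TPM.

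The Slc genes that mark other tissues were mostly at 0. On a list of 13 such genes, 7 had no count in either library, among them Slc4a1 of red cells, Slc6a4 of serotonergic neurons, Slc32a1 of inhibitory neurons and the kidney genes Slc34a1, Slc5a2 and Slc12a1. The hepatocyte bile acid carrier Slc10a1 (3.34 and 4.67 TPM) and the vesicular amine carrier Slc18a2 (1.06 and 2.28 TPM) were the members that reached 1 TPM. For Slc10a1 this rested on 136 and 133 expected counts. On a list of 23 Slc genes known from macrophages, 21 were present. The exceptions were the lactate carrier Slc16a1 (0.460 and 0.850 TPM) and the arginine carrier Slc7a2 (0.670 and 0.320 TPM). Both lists were chosen with earlier results of these data known, and the limit of 1 TPM is the one that chose the genes. The counts from the lists are therefore a description only and no evidence of cell identity.

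**Figure D1:**
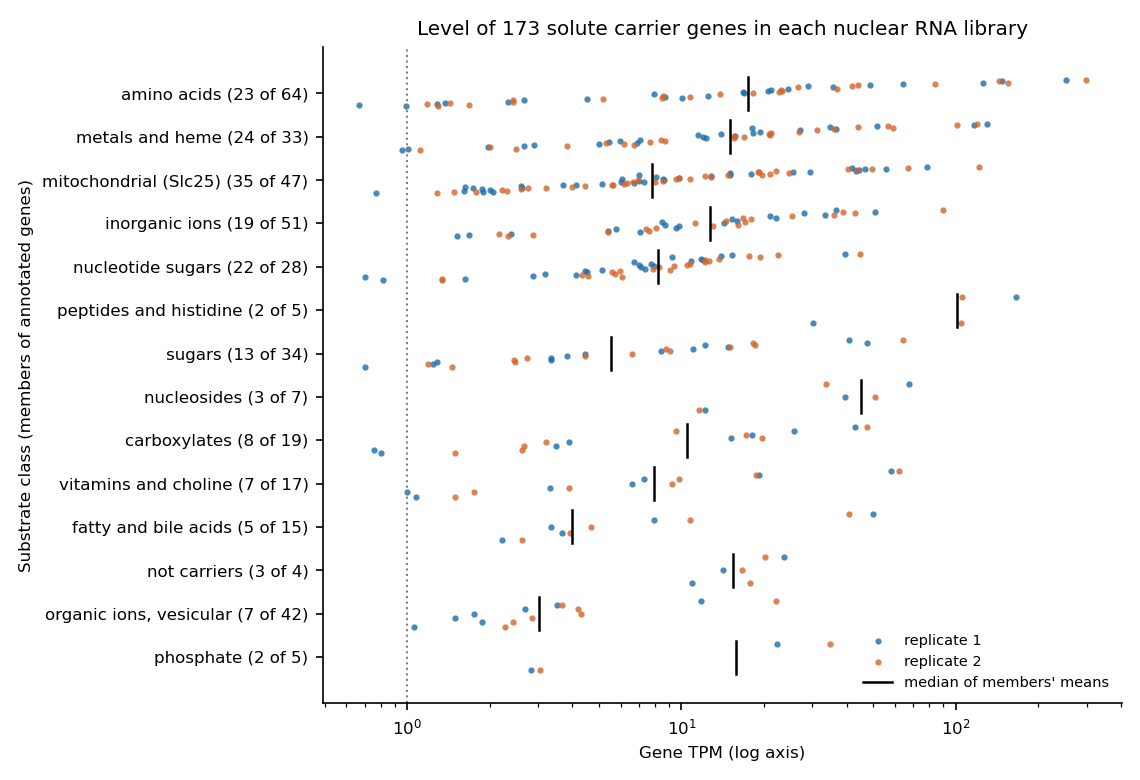
Gene TPM on a log axis for the 173 Slc genes at a mean of 1 TPM or more, in 13 substrate classes plus the symbols that are not carriers; each gene is a pair of points, blue for replicate 1 and orange for replicate 2, the black bar is the class median of the genes' mean TPM, and the dotted line marks 1 TPM. Amino acid carriers reach the highest levels, with Slc6a6 at 251.8 and 297.8 TPM, while the organic ion class has 7 of 42 genes present and a median of 3.02 TPM.

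Carriers of amino acids held the largest part of the signal. Classes follow the family number, so single genes can carry another substrate than the class name says. Of 64 annotated genes 23 were present, and they summed to 856 TPM in replicate 1 and 974 TPM in replicate 2, or 26.2% and 26.3% of the solute carrier TPM. Slc6a6 (ENSMUSG00000030096), the taurine carrier, was the highest gene of all 173 with 251.8 and 297.8 TPM. Slc3a2, which encodes the heavy chain CD98 that brings several light chain carriers to the surface, had 147.5 and 143.3 TPM. Slc43a2, a carrier of large neutral amino acids, had 125.3 and 155.2 TPM. These 3 genes alone thus exceeded any other class except the metal and mitochondrial ones in summed TPM, and each stood at a similar level in both libraries.

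The light chains that pair with Slc3a2 differed widely in level. Slc7a8, a light chain for neutral amino acids, was highest with 48.9 and 44.1 TPM. Slc7a7, which exports cationic amino acids, had 12.5 and 8.58 TPM. Slc7a5, the main leucine exchanger of dividing cells, had 2.66 and 2.44 TPM, Slc7a6 had 2.33 and 2.44 TPM, and the cystine importer Slc7a11 had 0.990 and 1.30 TPM. The 5 light chains together stayed below Slc3a2 in both libraries. Among the sodium-coupled carriers of family 38, Slc38a6 had 64.5 and 83.9 TPM. Slc38a9, the lysosomal arginine sensor of the mTORC1 pathway, had 29.0 and 42.0 TPM, and Slc38a2, the stress-induced glutamine carrier, had 16.9 and 18.2 TPM. Slc1a5, another glutamine carrier, was low at 4.51 and 5.16 TPM.

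Metal and heme carriers were the second class, with 24 of 33 genes present and 558 and 639 TPM. Slc11a1 (NRAMP1) had 130.5 and 119.5 TPM. A working NRAMP1 protein pumps iron and manganese out of the phagosome. Whether the Slc11a1 allele of this mouse strain gives a working protein was not tested, and its RNA level does not show it. The related gene Slc11a2 (DMT1), the importer of ferrous iron, had 51.6 and 56.8 TPM. Both Slc11a1 and Slc11a2 lay within 2-fold between the libraries. Slc31a2, a copper carrier of endosomes, had 116.2 and 101.5 TPM, and the high-affinity copper importer Slc31a1 had 19.4 and 26.8 TPM. Slc40a1, the iron exporter ferroportin, stood apart with 18.1 TPM in replicate 1 against 59.3 in replicate 2. The heme carrier Slc48a1 had 18.2 and 21.3 TPM.

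Zinc carriers were spread over both directions of transport. Importers of family 39, which raise cytosolic zinc, were led by Slc39a1 (34.9 and 44.1 TPM), the secretory pathway member Slc39a7 (36.7 and 36.1 TPM) and Slc39a13 (27.1 and 31.2 TPM). Slc39a14, which takes up zinc and iron in inflammation, was low at 2.67 and 3.82 TPM. Among the exporters of family 30, Slc30a1, which acts at the plasma membrane, had 15.7 and 15.6 TPM, and the Golgi member Slc30a5 had 11.5 and 21.1 TPM.

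Mitochondrial carriers of family 25 were the most numerous, with 35 of 47 genes present, summing to 533 and 598 TPM. The phosphate carrier Slc25a3 led with 78.5 and 121.2 TPM, followed by the pyrimidine nucleotide carrier Slc25a36 with 41.8 and 66.8 TPM. Slc25a37 (mitoferrin-1), which brings iron into mitochondria, had 46.7 and 49.7 TPM, and its paralogue Slc25a28 (mitoferrin-2) had 25.6 and 19.0 TPM. The citrate carrier Slc25a1, which exports citrate to the cytosol, had 8.64 and 6.96 TPM. The median of the class was 7.80 TPM, so a few genes carried its sum.

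Other mitochondrial carriers with a known substrate covered energy exchange, cofactors and metabolites. The ATP-ADP exchanger Slc25a5 had 44.3 and 43.6 TPM, while its paralogue Slc25a4 had 8.59 and 9.58 TPM. The NAD carrier Slc25a51 had 15.0 and 24.7 TPM and the carnitine-acylcarnitine carrier Slc25a20, which brings fatty acids in for oxidation, had 3.71 and 5.64 TPM. Slc25a5 thus had more RNA than Slc25a4 in both libraries. The oxoglutarate carrier Slc25a11 had 17.9 and 21.1 TPM, and the dicarboxylate carrier Slc25a10 had 29.3 and 19.1 TPM, a library difference of -0.88. The glutathione carrier Slc25a39 had 9.77 and 9.81 TPM, whereas Slc25a40, its paralogue, had 6.99 and 19.7 TPM.

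Inorganic ion exchangers had 19 of 51 genes present with 298 and 376 TPM. Slc9a9, a sodium-proton exchanger of endosomes, had 36.7 and 90.1 TPM, and the mitochondrial sodium-calcium exchanger Slc8b1 had 50.9 and 38.8 TPM. Carriers of nucleotide sugars and acetyl-CoA, which feed glycosylation in the Golgi, had 22 of 28 genes present, the highest share of any carrier class at 78.6%. Their mean levels ran from 1.08 to 42.1 TPM, with a median of 8.20 TPM. Slc35f6 (39.3 and 44.9 TPM), whose substrate is not established as a nucleotide sugar, led, followed by Slc35b1 (15.3 and 22.4 TPM) and Slc35b3 (14.0 and 17.6 TPM). Among those with a known single sugar, Slc35a1 for CMP-sialic acid had 2.88 and 4.55 TPM, Slc35a2 for UDP-galactose had 7.36 and 7.89 TPM, and Slc35c1 for GDP-fucose had 4.54 and 5.59 TPM. Each of these 3 stood at a similar level in both libraries. Slc33a1, which brings acetyl-CoA into the endoplasmic reticulum, had 6.98 and 10.5 TPM.

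Only 2 of 5 genes of the peptide and histidine class were present, and both were high. Slc15a3 and Slc15a4 encode lysosomal carriers that export histidine and small peptides, among them bacterial peptides that activate innate receptors in the cytosol. Slc15a3 had 166.0 TPM in replicate 1 against 105.5 in replicate 2. Slc15a4 was listed with 30.1 and 104.2 TPM, a value that its counts do not share, as described for the library differences. Among 3 nucleoside carriers present of 7, the concentrative carrier Slc28a2 had 67.4 and 33.6 TPM, the lysosomal Slc29a3 had 39.5 and 50.9 TPM and the plasma membrane carrier Slc29a1 had 12.2 and 11.6 TPM.

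Sugar carriers had 13 of 34 genes present with 153 and 156 TPM. Slc37a2, a phosphate-linked glucose-6-phosphate antiporter of the endoplasmic reticulum, had 40.9 and 64.4 TPM, and the lysosomal hexose carrier Slc2a6 (GLUT6) had 47.7 and 18.3 TPM. The general glucose importer Slc2a1 (GLUT1) was low, with 3.34 and 2.46 TPM on 291 and 143 expected counts. The sugar carrier Slc50a1 had 12.2 and 18.5 TPM and Slc37a4, which serves glucose-6-phosphatase, had 3.84 and 4.47 TPM. Carboxylate carriers had 8 of 19 genes present. Slc16a6 had 42.9 and 47.4 TPM, Slc13a3, a sodium-coupled dicarboxylate importer that accepts itaconate, had 25.7 and 9.53 TPM, and the lactate exporter Slc16a3 had 3.90 and 3.21 TPM.

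The remaining classes were small. Vitamin and choline carriers had 7 of 17 genes present and were led by the ascorbate carrier Slc23a2 (58.1 and 62.0 TPM) and the choline carrier-like gene Slc44a2 (19.2 and 18.7 TPM), while the lysosomal Slc46a3 had 7.33 and 9.82 TPM. Of 15 genes for fatty acids and bile acids 5 were present, led by the fatty acid carrier Slc27a1 (50.1 and 40.7 TPM) and Slc10a7 (7.95 and 10.7 TPM). Organic ion and vesicular carriers had 7 of 42 genes present, and the lysosomal sialic acid exporter Slc17a5 led them with 11.8 and 22.2 TPM. The phosphate importer Slc20a1 had 22.3 and 34.9 TPM and Slc20a2 had 2.82 and 3.05 TPM. Of 4 symbols that match the Slc pattern but do not name carriers, 3 were present: the scaffold gene Slc9a3r1 (NHERF1; 23.6 and 20.1 TPM), Slc7a6os (14.2 and 16.7 TPM) and Slc4a1ap (10.9 and 17.8 TPM).

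Other transport families are given beside these for scale. ABC transporters had 28 of 50 genes at 1 TPM or more (56.0%), Mfsd carriers 17 of 23 (73.9%) and ion-pumping and related ATPases 36 of 59 (61.0%). The organic anion carriers of the Slco series, which are solute carriers under another symbol, had 1 of 14, Slco3a1, with 33.9 and 13.2 TPM.

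Most solute carrier genes lay within 2-fold between the libraries. The difference was the log2 ratio of replicate 2 to replicate 1 (TPM + 1), from which 0.29 was subtracted, its median over 12952 genes at the same level. With 1 library on each side no test of a difference was possible. By this measure 165 of 173 genes lay within 2-fold. The shares beyond 2-fold are given below beside those of the protein-coding genes present. The 10th and 90th percentiles were -0.59 and 0.44, beside -0.64 and 0.51 for protein-coding genes present. The median was -0.06 (SD 0.47 over genes), beside -0.04 (SD 0.48) for protein-coding genes present, and 77 genes were higher and 96 lower in replicate 2. Without the subtraction 126 of 173 were higher in replicate 2 and the median was 0.23, so the split of directions depends on that step. The genes beyond 2-fold were then 6 higher and 2 lower in replicate 2, in place of 4 and 4. With the subtraction, 16 of 23 amino acid carriers were lower (class median -0.13) and 5 of 7 organic ion carriers were higher (class median 0.34). These class counts were not repeated without it, and the same shares over all protein-coding genes were not counted.

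**Figure D2:**
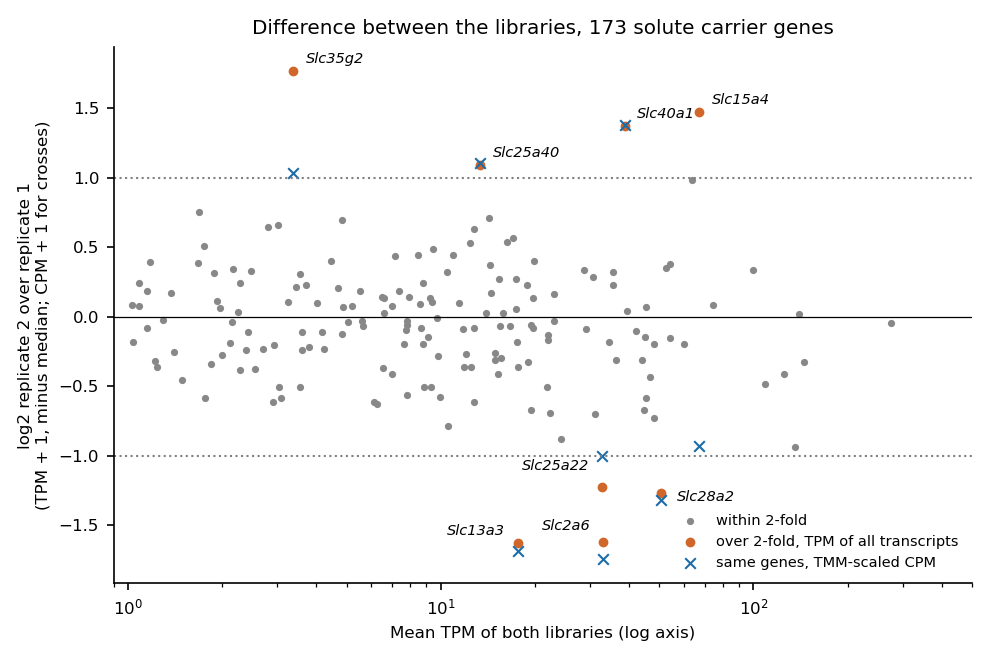
Difference between the libraries for the 173 genes as log2 of replicate 2 over replicate 1 (vertical axis, TPM + 1, minus the median over genes) against mean TPM (log axis); orange points are the 8 genes beyond the dotted 2-fold lines, and blue crosses are the same 8 genes from TMM-scaled CPM. The crosses lie close to their points for the 4 lower genes and for Slc40a1 and Slc25a40, while that of Slc15a4 lies at -0.93, on the other side of 0.

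More than 2-fold higher in replicate 2 were 4 genes (2.31%, against 1.11% of the protein-coding genes present). Slc40a1 (ferroportin) had 18.1 and 59.3 TPM on 1691 and 3919 expected counts, a log2 difference of 1.37. The deposited intervals of its TPM, whose level is not stated and which cover the quantification alone, ran from 17.3 to 21.2 and from 56.0 to 61.5. Slc25a40, a mitochondrial carrier for glutathione, had 6.99 and 19.7 TPM (525 and 1021 counts), a difference of 1.09. Slc35g2, a member of family 35 without an established substrate, had 0.700 and 6.05 TPM on only 29 and 72 counts, a difference of 1.76. Of its TPM in replicate 2, 4.39 belonged to a single processed transcript that was at 0 in replicate 1. These 3 genes were also over 2-fold higher in TMM-scaled CPM, which does not divide by length, at 1.37, 1.10 and 1.03. In the other deposited transcript table, made from the reads directly and summed to genes, Slc40a1 (1.49) was the only one of the 4 genes still beyond 2-fold, with Slc25a40 at 0.97 and Slc35g2 at 0.75. Slc9a9 lay just inside the limit at 0.98.

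More than 2-fold lower in replicate 2 were also 4 genes (2.31%, against 3.08% of the protein-coding genes present), each from another class. Slc13a3 had 25.7 and 9.53 TPM (2011 and 540 counts), a difference of -1.63. Slc2a6 had 47.7 and 18.3 TPM (2928 and 762 counts), a difference of -1.62. Slc28a2 had 67.4 and 33.6 TPM, a difference of -1.27. Its gene counts of 5513.2 and 1947.3 were not whole, so part of its reads was shared with transcripts outside this gene. Slc25a22, a mitochondrial glutamate carrier, had 43.3 and 22.1 TPM (2580 and 1130 counts), a difference of -1.23. In TMM-scaled CPM the 4 differences were -1.69, -1.74, -1.32 and -1.01. In the table made from the reads directly they were -0.97, -1.11, -0.84 and -0.95, so that Slc2a6 alone stayed beyond 2-fold. For Slc25a22 the deposited intervals of 43.1 to 58.8 and 25.1 to 50.8 overlapped, and for the other 3 genes they did not. The TPM of Slc25a22 in replicate 2, 22.1, lay below its own interval, so its difference of -1.23 is uncertain. Without the subtraction of the median, Slc28a2 (-0.98) and Slc25a22 (-0.94) were inside the 2-fold limit. Slc15a3 lay just inside the limit at -0.94, with 13605 and 6390 counts.

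Slc15a4 (ENSMUSG00000029416.17) lies on chromosome 5, 127595664 to 127632897, minus strand, mm10. It was the gene whose direction depended on the unit with both differences beyond 0.5. Its TPM was 30.1 in replicate 1 and 104.2 in replicate 2, a difference of 1.47, while its expected counts were 2251.6 and 1036.0 and its TMM-scaled CPM 107.5 and 55.7, a difference of -0.93. Of its 104.2 TPM in replicate 2, 70.9 TPM belonged to Slc15a4-211, a 166-base processed transcript with 8.66 expected counts, shorter than the 250 to 400 size range recorded for the library. That transcript was at 0 in replicate 1. Without transcripts under 300 bases, a setting chosen after seeing the data, the gene had 30.1 and 31.1 TPM and a difference of -0.23. The protein-coding transcript Slc15a4-201 had 14.0 and 10.8 TPM on 1055 and 556 counts. Slc15a4 was the single gene of the 173 (0.578%) for which TPM and TMM-scaled CPM differed in sign with both beyond 0.5, and 0.0199% of the protein-coding genes present did so.

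**Figure D3:**
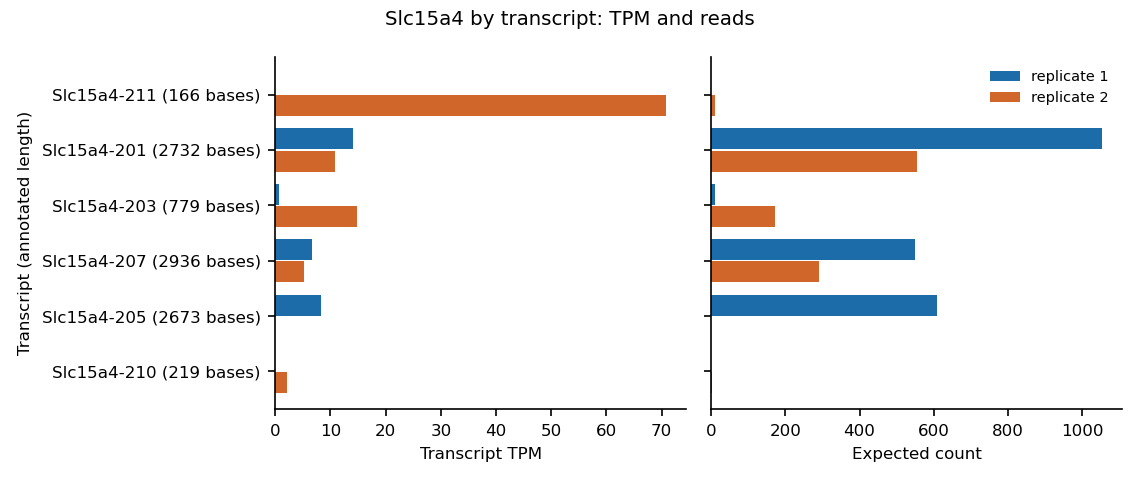
TPM (left, linear axis) and expected counts (right, linear axis) of the Slc15a4 transcripts with a mean of 1 TPM or more, with blue bars for replicate 1 and orange bars for replicate 2 and the annotated length in brackets. The 166-base transcript has the longest TPM bar, 70.9 in replicate 2, on 8.66 counts, whereas Slc15a4-201 has 1055 and 556 counts.

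Solute carrier RNA was assigned to transcripts typed as protein-coding and to transcripts of other types. The protein-coding type does not mean that the full protein is encoded, since short transcripts also hold it. One is Slc23a2-203, of 379 bases, with 10.4 and 11.2 TPM. Each annotated transcript has a type, and reads are divided among the transcripts of a gene by estimation, so the shares carry more error than gene levels. Of the TPM of the 173 genes 70.0% was assigned to protein-coding transcripts, 18.3% to retained-intron transcripts, 9.24% to processed transcripts, which have no open reading frame, and 2.49% to targets of nonsense-mediated decay. Over all protein-coding genes present the shares were 76.8%, 16.1%, 4.57% and 2.47%. Without Slc15a4 the processed share of the solute carriers was 8.41%. The median gene had 72.7% of its TPM in protein-coding transcripts, beside 76.3% for protein-coding genes present. In 32 genes (18.5%) protein-coding transcripts held under 50% of the TPM, near the 20.9% of protein-coding genes present. TPM gives short transcripts more weight than their reads do. By expected counts, a measure added after seeing the data, the median share was 88.5% beside 89.7%, and 21 genes (12.1%, against 14.1% of protein-coding genes present) had under 50%, of which 19 were also under 50% by TPM.

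By class, the median protein-coding share of TPM ran from 49.9% in the pair of peptide carriers and 54.3% in organic ion carriers to 84.9% in metal carriers and 96.0% in nucleoside carriers. Slc31a2 had 100% in both libraries and Slc3a2 96.1% and 92.7%. Slc6a6 had 71.9% and 80.2%, with 60.1 and 55.0 TPM in retained-intron transcripts, but 96.6% and 97.7% by expected counts. Slc11a1 had 38.9% of its TPM in protein-coding transcripts in both libraries, but 65.7% and 71.5% of its expected counts. The 378-base processed transcript Slc11a1-206 had 34.5 and 39.5 TPM on 173.2 and 130.2 counts, beside 3174 and 1994 counts for the protein-coding Slc11a1-201.

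**Figure D4:**
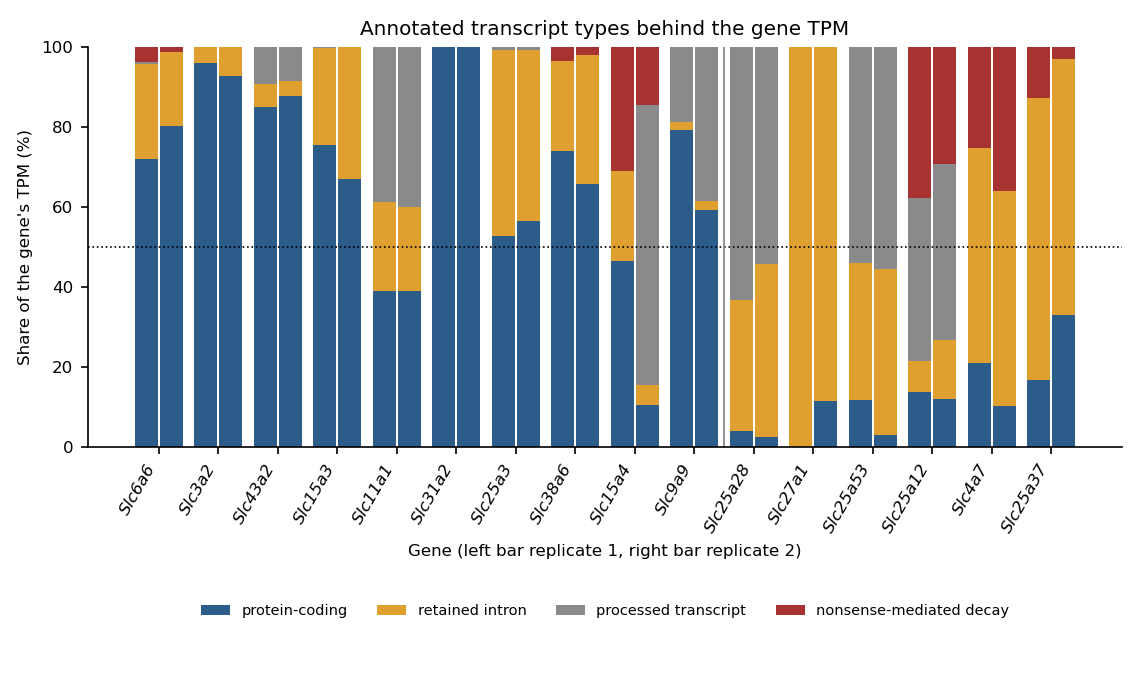
Share of each gene's TPM (%, axis from 0 to 100) by annotated transcript type, left bar replicate 1 and right bar replicate 2, for the 10 highest genes (left of the vertical line), the 5 genes with the lowest protein-coding share, and Slc25a37; the dotted line marks 50%. Slc25a28 has 3.95% and 2.36% protein-coding TPM and Slc27a1 has 0% and 11.4%, against 100% in both libraries for Slc31a2.

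The lowest protein-coding shares included a mitochondrial iron carrier and the leading fatty acid carrier. Slc25a28 (mitoferrin-2) had 1.01 and 0.450 TPM in protein-coding transcripts, 16.2 and 10.4 TPM in a processed transcript and 8.40 and 8.24 TPM in the retained-intron transcript Slc25a28-202. Its paralogue Slc25a37 (mitoferrin-1) had 16.7% and 32.9% in protein-coding transcripts, and its retained-intron transcript Slc25a37-203 had 32.9 and 31.9 TPM on 5631 and 3724 counts. Both paralogues thus had an annotated intron-holding transcript at nearly the same level in both libraries. In Slc27a1 the TPM was split among 3 retained-intron transcripts, and protein-coding transcripts were at 0 in replicate 1 and at 4.62 TPM in replicate 2. The aspartate-glutamate carrier Slc25a12 (13.8% and 12.1%), Slc25a53 (11.7% and 3.02%) and the sodium-bicarbonate cotransporter Slc4a7 (21.1% and 10.1%) were the other 3 genes at the low end. By expected counts the protein-coding share was 2.87% and 1.56% in Slc25a28, 13.4% and 25.9% in Slc25a37, and 0% and 11.4% in Slc27a1. For Slc25a12 it was higher than by TPM, at 45.1% and 46.5%, and for Slc4a7 it was 40.7% and 20.1%.

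The borders of 1 intron kept in each of these transcripts are shown for the mitoferrin pair, Slc27a1 and Slc11a1, because they show which coding exons the retained sequence separates. The bases were read from the GENCODE M21 transcript sequences (mm10) on the gene's strand. Each line has 20 bases of coding exon in lower case and 10 bases of the retained intron in capitals, 5′ to 3′. The intron shown of Slc25a28-202 lies at chr19:43665829-43666914 (minus strand, 1086 bases), that of Slc25a37-203 at chr14:69247638-69249393 (minus strand, 1756 bases), that of Slc27a1-203 at chr8:71580702-71580766 (plus strand, 65 bases) and that of Slc11a1-203 and Slc11a1-208 at chr1:74383745-74384023 (plus strand, 279 bases).
Slc25a28 intron start: caatagccatattgccaatgGTATTGAGCC
Slc25a37 intron start: aaacagccatctagctaatgGTATTTTGAA
Slc25a28 intron end: TCCTTTGCAGgtgcagccggatgtgtggcg
Slc25a37 intron end: TGTTTTGCAGgggtagctgggagtatggcc
Slc27a1 intron start: gccactctaccactctgcagGTATGTGGGC
Slc27a1 intron end: CTCTCTCTAGggaacatcatgggtgtgggg
Slc11a1 intron start: caggacagttcgtgatggagGTGGGTATCG
Slc11a1 intron end: TCCCACCCAGggtttccttaagctgcggtg

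All 4 introns start with GT and end with AG. In the mitoferrin pair, 15 of 20 exon bases before the intron and 13 of 20 after it were identical position by position. Introns not shown are one of 108 bases in Slc27a1-203, at chr8:71579799-71579906, and one of 307 bases in Slc11a1-203, at chr1:74379890-74380196. Slc25a28-202 keeps a further intron of 1128 bases, at chr19:43664644-43665771, and its exon borders had 11 and 8 of 20 bases identical to those of the Slc25a37 intron.

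For a few genes the transcript types differed between the libraries more than the gene level did. Slc1a5 had 4.51 and 5.16 TPM as a gene, but its protein-coding share was 5.54% in replicate 1 and 89.7% in replicate 2, on 316 and 266 counts. In the table made from the reads directly, its protein-coding share averaged 19.0% over the libraries, but it also differed between them. There the protein-coding Slc1a5-201 had 0.0488 and 1.60 TPM and the retained-intron Slc1a5-202 had 0.875 and 1.19 TPM. In the creatine carrier gene Slc6a8 the decay-targeted transcript Slc6a8-202 had 1.08 TPM in replicate 1 against 17.1 in replicate 2, while its protein-coding transcripts Slc6a8-203 (8.71 and 7.15 TPM) and Slc6a8-201 (8.64 and 6.38 TPM) were slightly lower in replicate 2. Slc40a1 kept its division, with 70.5% and 67.2% protein-coding, and both its protein-coding transcript Slc40a1-201 (12.8 and 39.9 TPM) and its retained-intron transcript Slc40a1-208 (3.59 and 14.6 TPM) were higher in replicate 2. Slc25a40 likewise had 24.2% and 29.4% protein-coding TPM and was higher in both types in replicate 2.

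Other genes lie over some solute carrier exons, and no source used here gives the strand setting of the counting. Of the 173 genes 57 share exonic bases with another annotated gene, 49 of them on the opposite strand and 10 on the same strand. The share over all protein-coding genes was not counted, so these numbers do not set the solute carriers apart. All exonic bases of Slc26a1 (2.39 and 2.17 TPM) lie within the span of Idua, introns included, on the opposite strand. Only 141 of these bases are shared with Idua exons, and Idua had 31.9 and 40.8 TPM. Slc7a5 (2.66 and 2.44 TPM) likewise lies wholly within the span of Gm20388 on the opposite strand, which had 11.3 and 16.1 TPM. For Slc31a1, 97.3% of exonic bases lie within the span of Cdc26 on the opposite strand (10.1 and 10.4 TPM). Slc15a3 shares 1541 exonic bases with Tmem132a on the opposite strand, which had 71.8 and 118.9 TPM, higher in replicate 2 where Slc15a3 was lower. Slc16a6 shares 1052 bases with Amz2 (11.6 and 37.1 TPM) and Slc43a2 shares 922 bases with an antisense gene at 19.1 and 13.0 TPM. Reads over such stretches cannot be assigned to 1 gene with certainty without strand, and their part in the values was not tested.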

How the data were processed

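The deposited tables were made on mm10 with GENCODE M21, as a deposited text file for each sample states. No source used here names the aligner, the quantifiers or the strand setting. Per the file headers, the gene and transcript tables hold expected counts (estimated reads, not normalised) and TPM (divided by effective length and scaled per library). The deposited isoform percent gives a transcript's share of its gene's TPM, per the file headers. The deposited interval bounds of TPM are treated as a score, since their level is not stated in the file headers. The deposited further transcript table, made from the reads directly, gives estimated counts with their TPM, per the file headers.

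Genes were chosen by symbol, a protein_coding transcript and a mean TPM of 1 or more. The genes, the substrate classes by family number and all lists were chosen with earlier results of these data known. Named genes were the 3 highest of each class, the 10 highest of all, the 5 most extreme library differences each way (at least 100 counts over both libraries), the 5 lowest protein-coding shares, 3 genes on each side of the limit, and the macrophage and other-tissue lists. The further genes named were chosen after their values were seen. The values of 1 gene that this rule names are not reported here.

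The difference between libraries was log2((TPM + 1) of replicate 2 over replicate 1) less the median for all genes at that mean TPM. For low genes this scale makes folds smaller than they are. It was called beyond 2-fold, and no p-value was computed. TMM-scaled CPM (1 added before log2) came from rounded expected counts with edgeR 4.0.16 in R 4.3.3. The rest ran in Python 3.11.15 (pandas 2.3.3, numpy 2.4.6, matplotlib 3.10.9, scipy 1.17.1). The difference script was tested on simulated data. To check only for 1 library deposited again, counts were compared by chi-square (91.3 per degree of freedom over 14347 genes), which holds the libraries against counting error alone and says nothing of conditions. The limit for a count of 0 was 3 counts, and it covers counting error only. Counts of 129 of the 173 genes were whole in both libraries to within 0.005. Alternatives are listed in the closing section.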

Additional observations from a re-analysis of the deposited data

How the results depend on the processing

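The number of genes present ran from 151 (mean TPM of 2) to 188 (0.5) over the settings tried, and from 166 to 177 with either library left out. Without centring 6 genes were over 2-fold higher and 2 lower in replicate 2. In the transcript table made from the reads directly 2 were higher and 2 lower, of which 1 each was among the 4 and 4. The share of amino acid carriers was 28.4% in that table and 33.7% in CPM, which is not divided by length. Genes with under 50% protein-coding expected counts numbered 21, those with under 25% protein-coding TPM 10, and with either library left out 26 to 42 had under 50%. In the table made from the reads directly 47 genes had under 50%, against 32 in the main setting. The difference of Slc15a4 was -0.13 in the table made from the reads directly, -0.93 in TMM-scaled CPM and -0.23 without transcripts under 300 bases. Of 64 named genes, 5 had the other sign in TMM-scaled CPM, Slc15a4 and 4 that lay within 2-fold (at most 0.37 in size), and 1 lay on the other side of the 2-fold limit. In the table made from the reads directly these numbers were 17 and 8. Carriers alone, transcripts of at least 300 bases, shares of expected counts, and TMM for named genes were chosen after seeing the data. Of the named levels 51 moved by more than the spread between the libraries in the table made from the reads directly, where the 173 genes summed to 1039 and 2765 TPM. No paired analysis was possible because there was 1 group.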
